A study of Mus musculus with 9 samples.

Results

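Egr1, Egr2 and Egr3 (early growth response genes), their corepressors Nab1 and Nab2, and Gfi1 were followed across the knockdown arrays of FDCPmix cells. Probes were chosen by the gene that their accession belongs to, without regard to signal. This gave 1 probe for each of the 6 genes, out of 41174 distinct probes and 16535 genes that an accession named, and all 6 passed the filter on dim probes (36585 probes tested). FDCPmix, from mouse, is a line of multipotent blood progenitors that depends on interleukin-3 to self-renew and can form several blood lineages. While self-renewing, cells received empty lentivirus (EV), lentivirus encoding shRNA (short hairpin RNA, which lowers its target's messenger RNA) against Gata2 (Gata2 KD), or shRNA against Pu.1 (Pu.1 KD). Pu.1 is the common name of Spi1. All groups carried a GFP vector, and viable GFP+ cells were sorted 5 days after transduction, so the EV cells share the infection and the sort with the knockdowns. There were 9 single-color Agilent arrays, 3 per group, from 1 cell line. The number of shRNA sequences per target is not given in the labels, and effects of a single hairpin beyond its target cannot be told apart from those of the knockdown.

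EGR proteins are zinc finger transcription factors whose genes are switched on within minutes of growth factor signaling, and NAB1 and NAB2 bind them and repress their target genes. GFI1 is a zinc finger repressor needed for neutrophil formation, and its relative GFI1B serves erythroid and megakaryocytic cells. In myeloid progenitors PU.1 is known to induce Egr2 and Nab2, whose products oppose Gfi1 on the macrophage side, whereas GFI1 opposes the macrophage program on the neutrophil side.

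Levels are log2 processed intensities from which the array's own 75th percentile was subtracted, given as mean ± SD (n = 3), and a difference of levels is a log2 change. The level of one probe cannot be set against that of another. A probe was called when its adjusted p was under 0.05 (limma, Benjamini-Hochberg over the 36585 tested probes, two-sided). Between 80.4% and 89.6% of spots on an array were well above background and none was saturated. The arrays came from 3 slides with 1 array of each group on each. EV replicate 3 was least like the others (mean Pearson correlation 0.96). The targets fell in their own knockdowns, with log2 changes of -1.61 for Gata2 in Gata2 KD (adjusted p = 0.00414, limma) and -1.73 for Spi1 in Pu.1 KD (adjusted p = 0.00178, limma). Spi1 rose by 1.39 in Gata2 KD (adjusted p = 0.0012, limma).

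Promoter windows of the genes were read first, so that the factors measured here can be seen beside the genes. RefSeq windows (GRCm38.p6, from 250 bases before to 50 bases after a transcript's start) were given for 4 of the 6 genes, Egr2, Nab1, Nab2 and Gfi1, in 9 windows. They were searched on both strands for the EGR site GCGNGGGCG, the CArG box that binds SRF, the PU.1 consensus GGAAGTG, the GATA consensus AGATAAG and the GFI1 core AAATCA. A position that matched on both strands was counted once. The array's own design uses another build, and no coordinates are given for the probes.

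Gfi1, the member with the largest change, is shown by the 250 bases before its outer start on chr5:107725806-107726055, minus strand. It held none of the 5 motifs, so no letters are in capitals:
Gfi1: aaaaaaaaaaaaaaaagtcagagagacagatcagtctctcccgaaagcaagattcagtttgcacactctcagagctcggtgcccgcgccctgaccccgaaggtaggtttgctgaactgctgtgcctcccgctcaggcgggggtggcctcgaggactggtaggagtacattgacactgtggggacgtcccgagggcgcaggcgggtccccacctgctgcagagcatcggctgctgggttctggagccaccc

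Egr2 is shown because it carried the SRF element that marks many immediate early genes. Capitals mark the CArG box in 2 stretches of 30 bases on the plus strand of chromosome 10 (chr10:67537484-67537513 and chr10:67537787-67537816). Each box itself begins 72 bases before a RefSeq start:
Egr2 first CArG box: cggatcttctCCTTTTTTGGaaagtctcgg
Egr2 second CArG box: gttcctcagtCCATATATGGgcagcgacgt
CArG boxes were in 1.63% of all 32851 mouse windows.

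Nab1 is shown because its window held 3 EGR sites, the element read by the proteins that NAB1 represses. Capitals mark the sites, the first in reverse orientation, at 141, 109 and 38 bases before the start on the minus strand of chromosome 1 (chr1:52500570-52500599, chr1:52500538-52500567 and chr1:52500467-52500496):
Nab1 first EGR site: gccccgcggcCGCCCACGCcgggatctgcg
Nab1 second EGR site: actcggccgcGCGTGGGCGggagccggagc
Nab1 last EGR site: gcggggcgggGCGGGGGCGgcggaggtggc
EGR sites were in 5.55% of all windows. The Nab2 window, like both Gfi1 windows, held none of the 5 motifs. The PU.1 consensus, the GATA consensus and the GFI1 core were in no window of the 4 genes, against 11.0%, 3.04% and 14.0% of all windows. These are matches of letters in short windows, and no binding was measured on these arrays.

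In Gata2 KD against EV, Gfi1 rose 4.16-fold, and Egr2 rose 1.82-fold with an adjusted p just under the threshold. No call was made for Egr1, Egr3, Nab1 or Nab2 against EV. Between the knockdowns Egr1 was lower, and Egr2 and Gfi1 were higher, in Gata2 KD than in Pu.1 KD. No member was called in Pu.1 KD against EV.

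Among the EGR factors, Egr1 had a level of 4.34 ± 0.28 in EV, 3.39 ± 0.51 in Gata2 KD and 4.95 ± 0.30 in Pu.1 KD. The EV arrays 1 to 3 read 4.04, 4.60 and 4.40, the Gata2 KD arrays 3.89, 3.41 and 2.87, and the Pu.1 KD arrays 4.61, 5.07 and 5.18. None of the 3 groups overlapped, with Gata2 KD lowest and Pu.1 KD highest. The direct comparison was called, at a log2 change of -1.56 (SE 0.29, 2.95-fold lower in Gata2 KD, adjusted p = 0.00962, limma). It ran from -2.31 to -1.18 within slides, and with slide as a block the adjusted p was 0.00781 (limma). Against EV, the change was -0.96 in Gata2 KD (SE 0.29, 95% interval -1.61 to -0.30, adjusted p = 0.125, limma) and 0.61 in Pu.1 KD (95% interval -0.05 to 1.26, adjusted p = 0.462, limma), and neither was called. The Gata2 KD change became a call with normexp background correction (adjusted p = 0.0245, limma), with trend and robust variance settings (0.0445) and in the deposited log2 values (0.0145).

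Egr2 had a level of -1.20 ± 0.20 in EV, -0.34 ± 0.26 in Gata2 KD and -1.33 ± 0.27 in Pu.1 KD. The EV arrays read -1.40, -1.19 and -1.004, the Gata2 KD arrays -0.16, -0.22 and -0.63, and the Pu.1 KD arrays -1.44, -1.53 and -1.02. Every Gata2 KD array was above every other array, and the EV and Pu.1 KD arrays overlapped. The probe has 10 spots on an array, whose SD of 0.0461 to 0.111 was below the SD among arrays in each group.

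Egr2 in Gata2 KD lay at the edge of the threshold. The log2 change against EV was 0.86 (SE 0.20, 1.82-fold, 95% interval 0.40 to 1.32, adjusted p = 0.0492, limma), and it was 0.76 to 1.03 within slides. The call depended on how the 75th percentile was taken. With the percentile over all spots, which was the first setting run on these data, the change was 0.84 and not called (adjusted p = 0.0573, limma). The percentile over averaged probes was adopted after that result had been seen. The call was kept under 7 of 21 alternatives and lost under 14, where the adjusted p reached 0.205 (limma, without Gata2 KD replicate 2). Among these 14 were slide as a block (0.0591) and the removal of any one of the EV arrays (0.145, 0.13 and 0.0607), of the Gata2 KD arrays (0.154, 0.205 and 0.0516), or of Pu.1 KD arrays 1 and 2 (0.0883 and 0.0681). The direction was the same in all 21.

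Against Pu.1 KD, Egr2 was higher in Gata2 KD by 0.99 (SE 0.20, 1.99-fold, adjusted p = 0.0161, limma), from 0.39 to 1.37 within slides and with an adjusted p of 0.0243 with slide as a block. This call was lost with replicate number as a block (0.0588) and without Gata2 KD replicate 1 or 2 (0.0622 and 0.0755) or Pu.1 KD replicate 1 or 2 (0.0712 and 0.0688). In Pu.1 KD against EV the change was -0.13 (95% interval -0.60 to 0.33, adjusted p = 0.964, limma).

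Egr3 was read at -2.86 ± 0.55 in EV, -3.11 ± 0.29 in Gata2 KD and -3.49 ± 0.36 in Pu.1 KD. All groups overlapped, and the changes were -0.25 (95% interval -0.96 to 0.46) in Gata2 KD and -0.63 (-1.34 to 0.08) in Pu.1 KD. More of its variance lay between slides (53.1%) than between groups (36.7%), and neither change was called (adjusted p = 0.905 and 0.495, limma). Within slides Egr3 was lower than in EV on 3 of 3 slides in both knockdowns, by -0.61 to -0.06 in Gata2 KD and -1.03 to -0.30 in Pu.1 KD. No alternative gave a call, and the lowest adjusted p in Pu.1 KD was 0.0836 (limma).

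The 2 corepressors of the EGR proteins were not called in any comparison. Nab1 had a level of 0.69 ± 0.41 in EV, 0.58 ± 0.38 in Gata2 KD and 0.86 ± 0.18 in Pu.1 KD. Its change was -0.11 in Gata2 KD (95% interval -0.70 to 0.49, adjusted p = 0.973, limma) and 0.17 in Pu.1 KD (-0.43 to 0.77, adjusted p = 0.965). The intervals exclude changes as large as that of Gfi1 in Gata2 KD.

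Nab2 could not be measured to that precision. Its level was -3.87 ± 2.09 in EV, -3.65 ± 1.27 in Gata2 KD and -3.29 ± 1.26 in Pu.1 KD, and it was well above background on 8 of 9 arrays, with EV replicate 3 as the exception. The EV arrays read -3.79, -1.82 and -6.00, the Gata2 KD arrays -2.19, -4.41 and -4.35, and the Pu.1 KD arrays -4.23, -1.86 and -3.78. In each group the array from the same slide read highest, and 86% of the variance lay between slides. The change in Gata2 KD was 0.22 with a 95% interval of -2.32 to 2.77 (adjusted p = 0.988, limma).

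**Figure D1:**
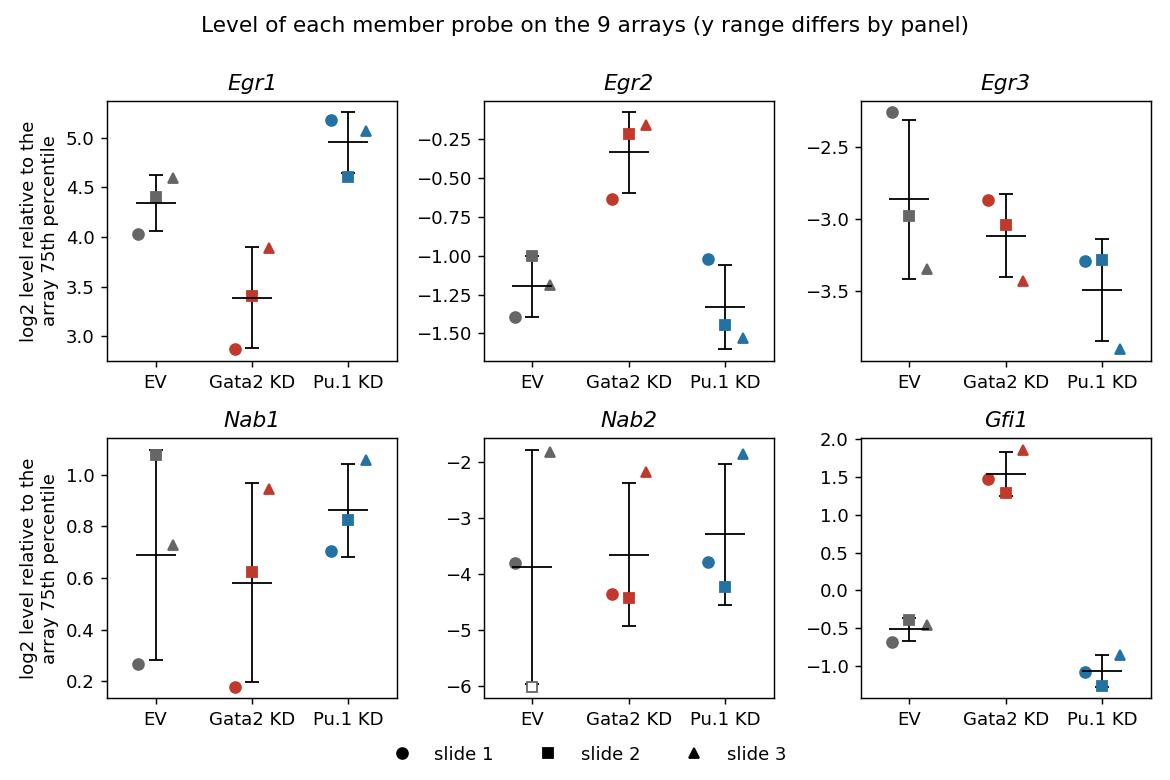
Level of each member probe on the 9 arrays, as log2 intensity relative to the array's 75th percentile, with bars for the mean ± SD of 3 arrays, marker shapes for the 3 slides and an open marker for the 1 array not well above background. Gfi1 and Egr2 were highest on the 3 Gata2 KD arrays, Egr1 was lowest there, and Nab2 was highest in each group on the array of the same slide.

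Gfi1 showed the largest change of the 6. Its level was -0.52 ± 0.15 in EV, 1.54 ± 0.29 in Gata2 KD and -1.06 ± 0.21 in Pu.1 KD. The EV arrays read -0.68, -0.46 and -0.40, the Gata2 KD arrays 1.86, 1.29 and 1.47, and the Pu.1 KD arrays -1.27, -0.85 and -1.08. All 3 groups were apart, with Gata2 KD highest and Pu.1 KD lowest. The Gfi1 change in Gata2 KD against EV was 2.06 (SE 0.19, 4.16-fold, 95% interval 1.62 to 2.49, adjusted p = 0.000424, limma). Within slides it ran from 1.69 to 2.32. Only 0.812% of tested probes had a larger rise. The call held under all 21 alternatives (adjusted p 8.09e-06 to 0.00482, limma).

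Gfi1 in Pu.1 KD was lower than in EV by a log2 change of -0.55 (SE 0.19, 95% interval -0.99 to -0.11), lower on 3 of 3 slides, and not called (adjusted p = 0.241, limma). The adjusted p lay between 0.0938 and 0.749 over the alternatives. Directly compared, Gfi1 was 2.61 higher in Gata2 KD than in Pu.1 KD (SE 0.19, 6.09-fold, adjusted p = 6.22e-05, limma).

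Counted over the 6 members, 2 were called higher and none lower in Gata2 KD against EV, where 5.2% of tested probes were called (2.96% higher and 2.24% lower). At an unadjusted p under 0.05, 3 members passed in limma, with Egr1, which was lower, as the addition. The share of all tested probes that passed at an unadjusted p under 0.05 is not given here. Unadjusted counts of the members and of the lists below therefore have no background beside them. In Pu.1 KD against EV limma called 0 of 6, against 2.7% of all probes (1.27% higher and 1.42% lower), and 1 member (Gfi1) passed at an unadjusted p under 0.05. Between the knockdowns 2 were called higher in Gata2 KD and 1 lower, where 9.63% of probes were called (4.86% higher and 4.77% lower). The 2 groups did not overlap for 3, 2 and 3 members in the 3 comparisons, against 18.6%, 17.3% and 25.8% of all probes. The median change over the 6 was 0.06, 0.02 and 0.05, beside -0.09, -0.04 and -0.04 over all tested probes. The first and second comparisons share the EV arrays, and all pairs of comparisons share a group. The members were chosen with earlier results of these data known, so these counts do not test the members as a set. The Egr2 call in Gata2 KD against EV was absent with the percentile setting that was run first.

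**Figure D2:**
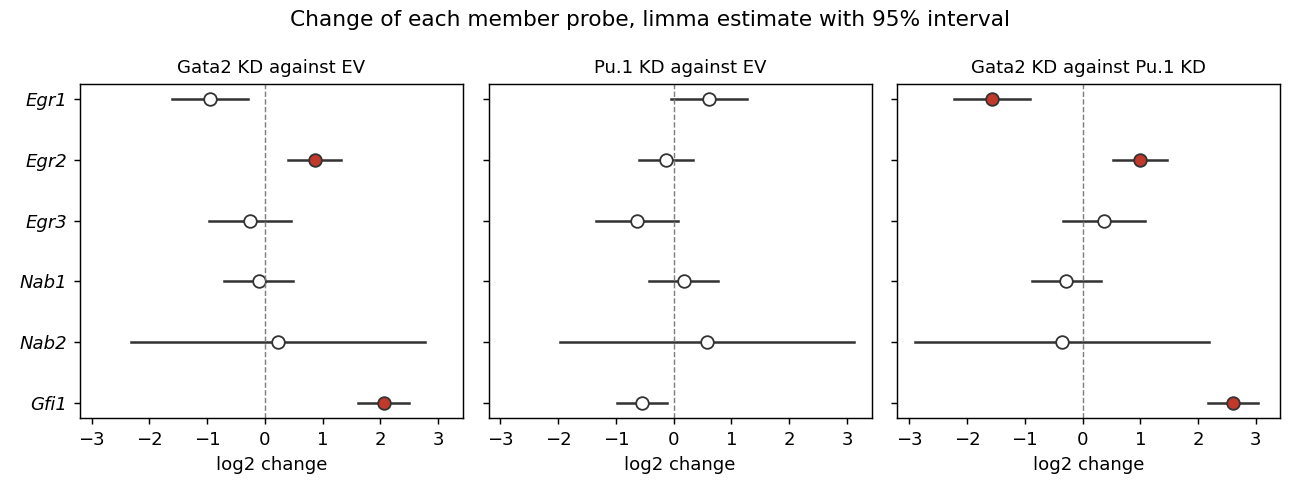
Log2 change of each member probe in the 3 comparisons (x axis), with the limma estimate as a point, its 95% interval as a line, and filled points for an adjusted p under 0.05. Gfi1 stood at 2.06 against EV and 2.61 against Pu.1 KD, Egr1 and Egr2 lay on opposite sides of 0 between the knockdowns, and Nab2 had the widest interval.

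Relatives of the members were followed on the same arrays. Gfi1b, the relative of Gfi1 used by erythroid and megakaryocytic cells, moved the other way. Its level was 3.91 ± 0.35 in EV, 2.58 ± 0.23 in Gata2 KD and 4.32 ± 0.15 in Pu.1 KD. The EV arrays read 3.54, 3.98 and 4.22, the Gata2 KD arrays 2.75, 2.68 and 2.31, and the Pu.1 KD arrays 4.37, 4.44 and 4.15. The Gata2 KD arrays lay below all others, and EV and Pu.1 KD overlapped. The change in Gata2 KD was -1.33 (SE 0.21, 2.52-fold, adjusted p = 0.00741, limma), and it was called under all 21 alternatives. The change in Pu.1 KD was 0.41 (adjusted p = 0.523, limma). Its 250 bases before the start held 1 GFI1 core, 34 bases before the start on the minus strand of chromosome 2 (chr2:28621999-28622028), shown here in capitals because Gfi1b is a known GFI1 target:
Gfi1b GFI1 core: taatcagattgaAAATCAgggaggggaaca
Egr4, the remaining EGR gene, had levels of -4.49 ± 0.33 in EV, -5.10 ± 0.87 in Gata2 KD and -4.50 ± 0.55 in Pu.1 KD and was not called (adjusted p = 0.71 and 1 against EV, limma).

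Genes known as targets of GFI1 repression were listed as the other end of the pathway. Of 8 tested, 4 rose and 2 fell in Gata2 KD against EV, and the median change was 0.90. Over all tested probes, 2.96% were called higher and 2.24% lower in that comparison. Those that rose included Csf1r, the macrophage colony-stimulating factor receptor (4.52, adjusted p = 1.26e-05), and its ligand Csf1 (2.18, adjusted p = 2.76e-05). Elane, neutrophil elastase, rose by 3.05 (adjusted p = 3.3e-05) and Id2, an inhibitor of helix-loop-helix factors, by 1.76 (adjusted p = 0.00039). Of the 3 tested Csf1r probes, 2 were called (4.52 and 3.28) and 1 was not (0.53, adjusted p = 0.513). The 2 that fell were Gfi1b and the progenitor factor Meis1 (-1.28, adjusted p = 0.0103, all by limma), and the Meis1 call was lost without Gata2 KD replicate 2 (0.058) and with only the 2 groups in the fit (0.056).

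In Pu.1 KD, 2 of the 8 rose, Id2 (1.13, adjusted p = 0.0106) and Csf1 (0.85, adjusted p = 0.00941), and limma called none lower (3 passed at an unadjusted p under 0.05 in either direction). Over all tested probes, 1.27% were called higher and 1.42% lower in Pu.1 KD against EV. Between the knockdowns these shares were 4.86% and 4.77%. Leaving out Pu.1 KD replicate 3 ended the Id2 call (adjusted p = 0.0552, limma), and leaving out Pu.1 KD replicate 1 ended that of Csf1 (0.0588). Both were also lost with the replicate block (0.0633 and 0.0702), with median scaling (0.0684 and 0.0636) and with only the 2 groups in the fit (0.0538 and 0.0686). Csf1 was higher in both knockdowns, with Gata2 KD arrays at 0.83, 0.82 and 0.72, Pu.1 KD arrays at -0.50, -0.56 and -0.56 and EV arrays at -1.38, -1.47 and -1.33. These groups did not overlap. Between the knockdowns 4 of the 8 were called higher in Gata2 KD and 3 lower, namely Gfi1b, Meis1 and Cdkn1a (-0.98, adjusted p = 0.0396, limma). The calls of Cdkn1a and Id2 in that comparison were lost under 9 and 11 of 21 alternatives. Single arrays that ended them were any Pu.1 KD array and EV replicate 1 for both (adjusted p 0.0596 to 0.163, limma), with Gata2 KD replicates 2 and 3 for Cdkn1a and EV replicate 2 and Gata2 KD replicates 1 and 2 for Id2 (0.0567 to 0.162).

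Corepressors through which GFI1 and NAB proteins act (10 tested of 12) gave 0 calls against EV in either knockdown by limma, with 5 and 1 genes at an unadjusted p under 0.05. Over all tested probes, 5.2% were called in Gata2 KD against EV and 2.7% in Pu.1 KD against EV, so 0 calls in 10 genes is near these shares. Between the knockdowns 9.63% of all tested probes were called. Kdm1a, which encodes the demethylase LSD1, had a change of -0.58 in Gata2 KD (adjusted p = 0.0556), which was called under 6 of 21 alternatives. With slide as a block the count in Gata2 KD rose from 0 to 3, all lower, namely Kdm1a (adjusted p = 0.046), the deacetylase gene Hdac3 (0.0468) and Mta1 (0.0247, limma). The same 3 were called with normexp (0.0325, 0.0483 and 0.0372) and in the deposited values (0.0196, 0.03 and 0.0334). Between the knockdowns Kdm1a (-0.56, adjusted p = 0.0417), Rcor1 (-0.54, adjusted p = 0.049) and Mta1 (-0.73, adjusted p = 0.00637) were lower in Gata2 KD, and the second Rcor1 probe was not called (adjusted p = 0.223, limma). The Kdm1a and Rcor1 calls were lost under 12 and 13 of the 21 alternatives, and that of Mta1 under 1 (median scaling, 0.081). Removing any single array ended the Rcor1 call (adjusted p 0.0568 to 0.18, limma), and any but EV replicate 3 ended the Kdm1a call (0.0513 to 0.157).

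SRF, its partners and other immediate early genes share the growth factor response of Egr1. Over all tested probes, 5.2% were called in Gata2 KD against EV, 2.7% in Pu.1 KD against EV and 9.63% between the knockdowns. Of 23 tested in Gata2 KD against EV, limma called 1 higher and 2 lower, with a median change of -0.06, and 9 passed at an unadjusted p under 0.05. Dusp2, a phosphatase for MAP kinases, rose by 0.82 (adjusted p = 0.0147). Its relative Dusp4 fell by 1.05 (adjusted p = 0.00246), and the nuclear receptor gene Nr4a2 fell by 1.22 (adjusted p = 0.00181). The Dusp2 call was lost without EV replicate 1 or Gata2 KD replicate 1 or 2 (adjusted p 0.0569, 0.0589 and 0.078, limma), and with the replicate block (0.0744), median scaling (0.0841) or only the 2 groups in the fit (0.0678). In Pu.1 KD, Fos fell by 1.55 (adjusted p = 0.0228) and Dusp1 fell by 1.15 (adjusted p = 0.0418), and none rose (5 of 23 passed at an unadjusted p under 0.05 in either direction), while Egr1 read 0.61 higher on the same arrays without being called. Both falls depended on single arrays. That of Fos was lost without EV replicate 2 or 3, Gata2 KD replicate 2 or any Pu.1 KD array (adjusted p 0.0533 to 0.11, limma), and that of Dusp1 was lost without any array but EV replicate 1 (0.0585 to 0.17 over all settings that lost it).

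Between the knockdowns 4 immediate early genes were higher in Gata2 KD and 3 lower, and 13 of 23 passed at an unadjusted p under 0.05 in limma. Zfp36, which destabilizes messenger RNA, was 1.63 higher (adjusted p = 0.00268), and Dusp1 was 1.00 higher (adjusted p = 0.0303). Dusp6 was also higher (0.75, adjusted p = 0.0182), as was Dusp2. Dusp4 and Nr4a2 both had a change of -1.28 (adjusted p = 0.000472 and 0.000806), and Btg2 was lower too (-0.79, adjusted p = 0.0274, all by limma). The calls of Zfp36, Dusp4 and Nr4a2 held under all 21 alternatives, whereas those of Dusp1, Dusp2, Dusp6 and Btg2 were lost under 8, 6, 7 and 6. Each of these 4 was lost without Gata2 KD replicate 2 or Pu.1 KD replicate 2. Dusp1 was also lost without any of the other knockdown arrays, Dusp6 without any of them but Pu.1 KD replicate 3, Dusp2 without replicate 1 of either knockdown and Btg2 without replicate 3 of either (adjusted p 0.0519 to 0.117 over these arrays, limma).

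**Figure D3:**
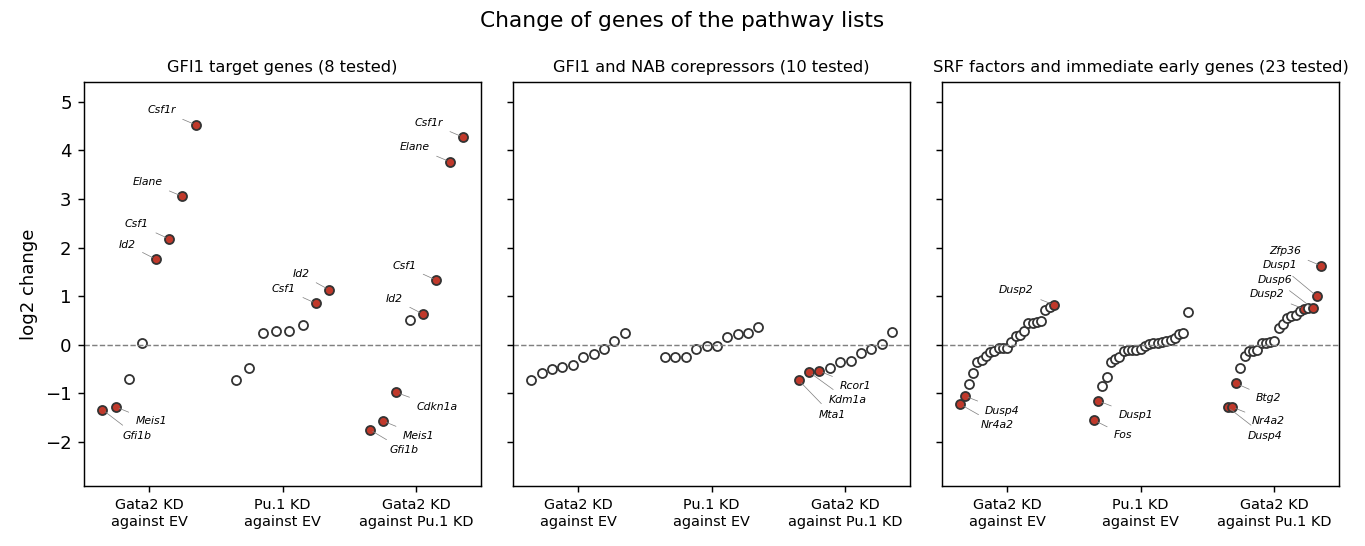
Log2 change (y axis) of each tested gene of 3 pathway lists in the 3 comparisons, sorted within each comparison, with filled, named points for an adjusted p under 0.05. GFI1 targets spread from -1.33 (Gfi1b) to 4.52 (Csf1r) in Gata2 KD against EV, and no corepressor was called against EV in either knockdown as plotted, although 3 were in Gata2 KD with slide as a block.

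Markers of the cell types that FDCPmix cells can form were read on the same arrays. As a background for every marker list, 2.96% of all tested probes were called higher and 2.24% lower in Gata2 KD against EV. In Pu.1 KD against EV these shares were 1.27% and 1.42%. Of 14 neutrophil genes tested, 12 rose in Gata2 KD, where Gfi1 was higher and the rise of Egr2 lay at the edge of the threshold. In Pu.1 KD, where neither was called, 10 of the 14 fell. Over the alternatives, the rises of these neutrophil genes were 11 to 13 and the falls 6 to 13 (8 to 10 with an array left out). Their summed linear level, relative to the 75th percentile, was 241.4 to 271 in EV. It was 1138 to 1358 in Gata2 KD and 106.1 to 125.1 in Pu.1 KD. Here and below, a sum adds probes that differ in brightness, so it follows the brightest and does not measure a cell type. It can be set only beside the same sum in another group. The neutrophil sums weigh Mpo, S100a9 and Ctsg most. Their levels were 5.92, 5.67 and 7.03 in EV, and 8.997, 8.42 and 7.99 in Gata2 KD. Of 10 monocyte and macrophage genes, 7 rose in Gata2 KD and 3 (Adgre1, Klf4 and Fcgr1) fell in Pu.1 KD, with sums of 5.69 to 6.58 in EV, 48.57 to 53.54 in Gata2 KD and 3.04 to 3.59 in Pu.1 KD. The 3 falls became 2 when any 1 array was left out, and 1 when it was Pu.1 KD replicate 1 or 2, since Klf4 was lost whichever array was left out (adjusted p 0.0738 to 0.125, limma) and Adgre1 without either of those (0.0575 and 0.0528).

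Of 6 mast cell and basophil genes, 5 fell in Gata2 KD, while 1 rose and 2 fell in Pu.1 KD, and the sums were 110 to 128.2 in EV, 22.31 to 24.27 in Gata2 KD and 71.02 to 79.35 in Pu.1 KD. Of 5 megakaryocyte genes, 1 rose in Gata2 KD and 3 rose in Pu.1 KD, with sums of 58.44 to 76.54 in EV, 61.55 to 92.3 in Gata2 KD and 147.8 to 172.7 in Pu.1 KD. Of 6 erythroid genes, 3 fell in Gata2 KD and 2 rose in Pu.1 KD, with sums of 11.06 to 12.56 in EV, 7.94 to 11.93 in Gata2 KD and 17.35 to 20.81 in Pu.1 KD. The erythroid sums weigh Hba-a1 most, whose level was 2.92 in EV, 3.02 in Gata2 KD and 3.67 in Pu.1 KD. The megakaryocyte sums weigh Pf4 most (5.14, 5.69 and 6.76 in the same order). Single arrays decided several of the small counts of these lists. The 3 erythroid falls in Gata2 KD became 1 without Gata2 KD replicate 1 or 3 and 2 without any other array but Pu.1 KD replicate 3, and the 2 erythroid rises in Pu.1 KD became 0 without EV replicate 1 or 2 or any Pu.1 KD array. The 3 megakaryocyte rises in Pu.1 KD became 1 without Pu.1 KD replicate 1 or 2 and 2 without any other array but EV replicate 3 and Gata2 KD replicate 1. In mast cell and basophil genes of Pu.1 KD, the 2 falls became 0 without Pu.1 KD replicate 1 and 1 without any other array, and the 1 rise was lost without EV replicate 1 or 2 or any Pu.1 KD array. Of 6 progenitor genes, Cd34 and Kit rose and Gata2, the shRNA target, fell in Gata2 KD against EV. In Pu.1 KD against EV, Kit rose and Cd34 fell. The Kit rise in Gata2 KD was lost under 9 of 21 alternatives, and the Cd34 fall in Pu.1 KD under 10. None of 5 lymphoid genes was called in either knockdown against EV. Elane and Csf1r stand both among the GFI1 targets and among the markers above. In bulk RNA a change in the share of cells and a change of RNA per cell cannot be told apart, and the part of cell composition in the Gfi1 and Egr2 changes was not tested.

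Genes whose level followed a member most closely were ranked over 15515 named genes by Pearson correlation across the 9 arrays. These are descriptions, since arrays of a group and slide share their history. Closest to Gfi1 were Cebpd (r = 0.998), a factor of the C/EBP family active in granulocytes, Acot1 (0.994) and Ccr2 (0.994), a monocyte chemokine receptor. In Gata2 KD against EV Cebpd rose by 3.22 (adjusted p = 7.4e-05), Ccr2 by 2.71 (adjusted p = 0.000648) and Acot1 by 1.72 (adjusted p = 0.000141, all by limma). Closest to Egr2 were Dusp2 (0.962), Spaca9 (0.961) and Nfkbiz (0.958), and closest to Egr1 were Csrnp1 (0.987), Stat5b (0.981) and Zkscan5 (0.981).

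For Egr3 the closest were Wdr60 (0.932), Ttll4 (0.929) and Cpne4 (0.925). Nab1 was followed by Uhrf2 (0.98), Zfp608 (0.98) and Zfp871 (0.971), and Nab2 by Lmnb2 (0.972), Dync1h1 (0.969) and Zfp758 (0.966). Among the members themselves, Gfi1 correlated with Egr2 at 0.913 and with Egr1 at -0.823 over the 9 arrays. Once each group's mean was removed, these values were 0.249 and 0.698.

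Between groups lay 97.4% of the variance of Gfi1, 83.1% of that of Egr2 and 81.1% of that of Egr1, against 14.7% for Nab1 and 3.3% for Nab2. Slides held 1.48%, 1.2% and 8.59% of the variance of the first 3 and 60.8% of that of Nab1.

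**Figure D4:**
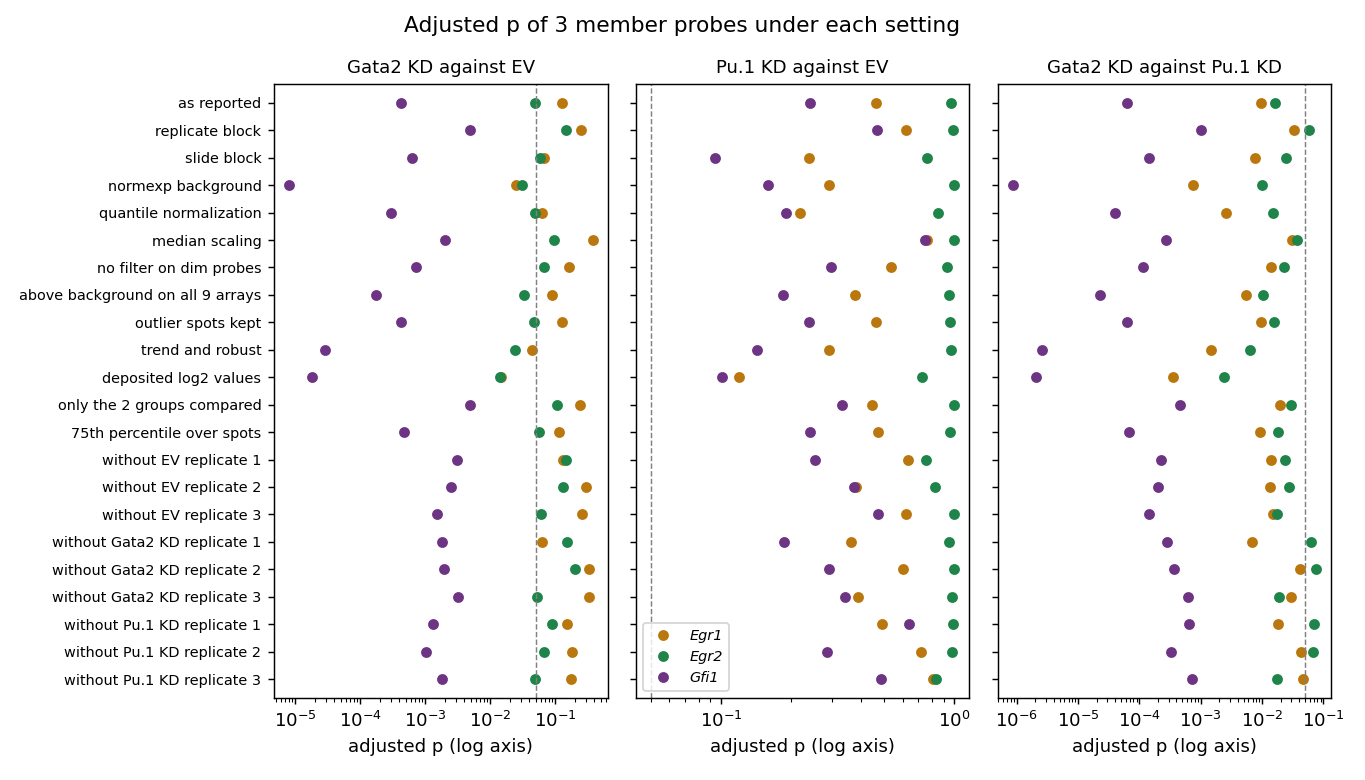
Adjusted p (x axis, log scale) of the Egr1, Egr2 and Gfi1 probes as reported and under each of 21 alternative settings (y axis), with a dashed line at 0.05. Gfi1 stayed left of the line in both comparisons of Gata2 KD, Egr2 against EV lay on both sides of it, and no member crossed it in Pu.1 KD against EV.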

How the data were processed

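The members and gene lists were chosen with earlier results of these data known. Total RNA (150 ng per sample) was hybridized to Agilent whole mouse genome arrays (design build mm8). The authors deposited the intensity values of Agilent Feature Extraction 10.1.1.1 for each array, background-subtracted within the array and not normalized between arrays, and a table of log2 values whose processing is not given in the sources used here. The deposited log2 values correlated with the log2 median signal at 0.997 or more and served as an alternative.

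Levels were the log2 processed signal, averaged over the spots of a probe without outlier-flagged spots, minus the array's 75th percentile over averaged probes. The percentile over all spots was run first. It was replaced after its results were seen, to match an earlier processing of these data, and this moved Egr2 in Gata2 KD across the threshold. Probes well above background on at least 3 of 9 arrays were tested with limma 3.58.1 in R 4.3.3 (lmFit over all 9 arrays, eBayes), with Benjamini-Hochberg adjustment. The precision is limited by 3 arrays per group. The p-values measure the spread among the 3 arrays of a group, which holds differences between slides as well as between triplicate transductions. Groups came from the sample titles. Accessions named 23374 of 41174 probes through RefSeq (GRCm38.p6). Where a gene had more than 1 probe, the brightest on average stood for it. Gata2, Id2, Meis1, Zfp36 and Adgre1 each had 2 tested probes and Btg2 had 3, and only the brightest is given for these genes.

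Genes named were the 6 members, the shRNA targets, the 3 genes most like each member, and called genes of the lists of EGR and GFI1 relatives, GFI1 targets, corepressors, immediate early genes and markers of neutrophils, monocytes and macrophages, mast cells and basophils, megakaryocytes, erythroid cells and progenitors. Genes that weigh most in a summed level were named as well. Alternatives were blocks for replicate number and slide, normexp background correction (offset 50, on the median signal, since no mean signal was in the columns used), quantile normalization, median scaling, no or a stricter dim filter, outlier spots kept, trend and robust variance, the deposited values, only the groups compared, each array left out in turn and, chosen after the data were seen, the percentile over spots. The limma step was tested on simulated data. Same-numbered replicates did not deviate together (r from -0.552 to 0.652), so the numbers were not taken as pairs. Arrays of 1 slide were more alike (r from -0.0406 to 0.719, with 8 of 9 arrays nearest to their own slide), and the model as reported has no slide term.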

Additional observations from a re-analysis of the deposited data

Results flagged for a closer look

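The change in Gata2 KD differed from the change in Pu.1 KD for 3 members. Because both changes are taken against the same EV arrays, this difference equals the direct comparison of the knockdowns in limma. It was -1.56 for Egr1 (adjusted p = 0.00962), 0.99 for Egr2 (adjusted p = 0.0161) and 2.61 for Gfi1 (adjusted p = 6.22e-05). Groups of 3 arrays are too small for a test of single outlying arrays.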

How the results depend on the processing

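Gfi1 was called in both comparisons of Gata2 KD, and Egr1 between the knockdowns, under all 21 alternatives. The count of members called in Gata2 KD against EV fell from 2 to 1 with replicate number as a block (the paired fit), with slide as a block, with median scaling, without a dim filter, with only the 2 groups in the fit and with the percentile over spots (chosen after the data were seen). It was 1 to 2 when arrays were left out in turn. It rose to 3 with normexp, with trend and robust settings and in the deposited values, where Egr1 was called lower (adjusted p = 0.0245, 0.0445 and 0.0145). The member lost was Egr2 (adjusted p = 0.145 with the replicate block, 0.0591 with the slide block, 0.0958 with median scaling, 0.0667 without a dim filter, 0.105 with only the 2 groups and 0.0573 with the percentile over spots). The count stayed 0 in Pu.1 KD and was 2 to 3 between the knockdowns. Among all probes, the 1902 calls in Gata2 KD became 1172 with the replicate block, 2886 with the slide block, 1203 with median scaling, 1114 with only the 2 groups and 1072 to 1698 with an array left out. The 986 calls in Pu.1 KD became 234, 1875, 377 and 223 in the same order, 1575 with trend and robust settings, 1785 with the deposited values and 280 to 824 with an array left out, and the 3524 calls between the knockdowns became 2259 with median scaling and 2206 to 3931 with an array left out. Changes that were never called turned sign in some settings. With an array left out, Egr3 in Gata2 KD ran from -0.49 to 0.051, Nab1 from -0.32 to 0.094 in Gata2 KD and from -0.040 to 0.37 in Pu.1 KD, and Nab2 from -0.84 to 1.25 in Gata2 KD, from -0.48 to 1.61 in Pu.1 KD and from -1.09 to 0.36 between the knockdowns. Nab2 in Gata2 KD was also -0.012 with normexp and -0.054 in the deposited values. The causes were not tested. Nab2 was not tested with a dim filter on all 9 arrays, since EV replicate 3 was not well above background.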
